A study of Mus musculus with 15 samples.

Results

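The STAT family of transcription factors was examined in stretched mouse podocytes through 6 genes, Stat2, Stat3, Stat4, Stat5a, Stat5b and Stat6, of the 55416 genes in the deposited count table, and through their 41 transcripts among 140789 in the deposited transcript table. The family was chosen by a measured value: the share of 1 Stat5a transcript, ENSMUST00000004145, passed the threshold under low stretch. For the family, low stretch is therefore described without a test, and tests are given for high stretch, whose samples did not supply that value. Earlier results of these data were known when the members were chosen, so high stretch is not a fully independent check. All samples were cultures of SVI, a conditionally immortalised mouse podocyte line that was differentiated and grown on flexible silicone membranes. Experiment 1 held 6 low-stretch cultures, labelled with a membrane deflection of 5 to 6 mm, and 3 unstretched cultures. Experiment 2 held 3 high-stretch cultures, labelled 7 to 8 mm, and 3 unstretched cultures. No culture carried a further genotype or agent in the labels. Each stretched group was set against the unstretched cultures of its own experiment, so amplitude and experiment cannot be told apart. Nothing in the labels says that the cultures were grown separately, so p-values measure only the spread between these samples, which may be technical.

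STAT proteins wait in the cytoplasm until a cytokine or growth factor receptor is engaged. Janus kinases bound to the receptor then phosphorylate a STAT tyrosine, and the STATs pair through their SH2 domains, enter the nucleus and bind DNA. STAT3 serves the interleukin-6 family through the shared receptor chain gp130 (Il6st), STAT5A and STAT5B serve growth hormone, prolactin and several interleukins, STAT6 serves interleukin-4 and interleukin-13, STAT4 serves interleukin-12 in lymphocytes, and STAT2 joins IRF9 in the interferon-activated complex ISGF3. CISH and the SOCS proteins are made in response and shut the pathway down.

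Poly(A) RNA was read as stranded 100-base pairs, and 172211836 to 396658285 counts fell on genes per library. Unstretched replicate 3 of experiment 2 stood apart from the other unstretched libraries of its experiment, with a score of 31.7 on the leading principal component against 122 and 163, and results that rest on it are also given without it. The immediate early gene Fos was at 234 CPM in that library and at 22.2 and 22.0 CPM in the other two, where CPM is the count scaled to a common library size. Of 15 podocyte markers, Synpo (254 to 820 CPM) and Podxl (94.7 to 206 CPM) were abundant in all libraries. The slit diaphragm gene Nphs1 (0.203 to 0.985 CPM) was near 0, and 6 of the 15 were below 1 CPM throughout. Their summed level was 1901 ± 124 CPM (SD, n = 6) under low stretch against 1646 ± 73.1 CPM (SD, n = 3), without overlap. Under high stretch it was 3152 ± 302 against 2607 ± 382 CPM (SD, n = 3 each), with overlap. The median log2 fold change of the tested markers was 0.20 and -0.23. Of 7 immune markers, 6 were below 1 CPM in every library, as were 5 of 6 endothelial markers. The summed level of 8 tubule markers, made up mostly of Lrp2 and Cdh16, was 863 ± 143 CPM (SD, n = 6) under low stretch against 1398 ± 202 CPM (SD, n = 3), and 570 ± 60.1 CPM under high stretch against 1349 ± 91.3 CPM (SD, n = 3 each). The summed level of 7 mesangial or fibroblast markers, nearly all of it Acta2, was 2892 ± 1040 against 1610 ± 366 CPM in experiment 1 and 9120 ± 2120 against 4688 ± 2218 CPM in experiment 2, with overlapping groups in both. Pdgfrb, the other abundant marker of that list, lay in the opposite direction without overlap, at 47.8 to 66.7 against 76.5 to 96.4 CPM and at 91.9 to 114 against 117 to 151 CPM. In bulk RNA, fewer cells of a kind and less RNA per cell cannot be told apart, and the part of these marker differences in the results was not tested.

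The transcripts that carry the main observation differ at the start of Stat5a on mouse chromosome 11. In the GENCODE M21 annotation (GRCm38), Stat5a-201 (ENSMUST00000004145) and Stat5a-202 (ENSMUST00000107356) each have 20 exons and share 19 of them. They hold the same coding exons, with 2379 annotated coding bases or 793 codons. They differ in the noncoding first exon, which has 230 bases in Stat5a-201 and 80 bases in Stat5a-202, whose start lies 305 bases downstream. Stat5a-206 starts 994 bases downstream and is a 4-exon model of 617 bases, and Stat5a-203 starts 1133 bases downstream with 18 exons and 797 codons. No exon of another gene lies over the first exon of Stat5a-201. The letters below, from RefSeq promoter windows of GRCm38.p6 on the plus strand, are shown because they are the stretches just before the downstream starts. The upper one, chr11:100859581-100859655, fills the gap between the first exons of Stat5a-201 and Stat5a-202, and the lower one, chr11:100860234-100860344, ends where Stat5a-206 begins.
Stat5a-202 upstream: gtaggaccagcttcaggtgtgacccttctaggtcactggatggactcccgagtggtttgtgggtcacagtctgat
Stat5a-206 upstream: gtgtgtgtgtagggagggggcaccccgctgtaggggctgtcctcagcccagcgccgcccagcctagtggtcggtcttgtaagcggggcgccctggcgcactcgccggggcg

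**Figure D1:**
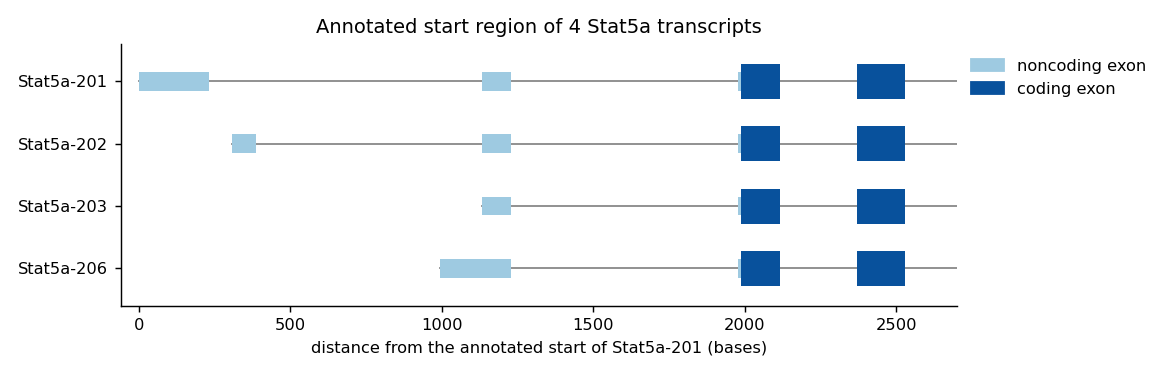
Annotated start region of 4 Stat5a transcripts, with distance in bases from the start of Stat5a-201 on the horizontal axis and 1 row per transcript. Light boxes are noncoding and dark boxes coding parts of exons; Stat5a-201 and Stat5a-202 differ only in the box at the far left.

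The RefSeq windows of 250 bases before the starts of the 6 genes were searched on both strands for 3 motifs: the STAT dimer site TTCNNNGAA, the wider spaced site TTCNNNNGAA associated with STAT6, and the core of the interferon-stimulated response element, GAAANNGAAA. Over all 32851 windows of that length, 7.02% held the dimer site, 5.85% the spaced site and 2.98% the interferon core. No window of a family member held the dimer site, and no Stat5a, Stat5b, Stat3 or Stat6 window held any of the 3. The Stat5a windows lie before the starts of Stat5a-202 and Stat5a-203 and run over annotated Stat5a exons, and the bases before the start of Stat5a-201 were not searched. Of the Stat4 windows, 1 held the interferon core. Stat2 held the interferon core on the minus strand, 222 bases before the start, and a spaced site 210 bases before it. The matches do not overlap and are in capitals in the Stat2 window, chr10:128270248-128270497 on the plus strand, shown because STAT2 is itself part of ISGF3.
Stat2 upstream: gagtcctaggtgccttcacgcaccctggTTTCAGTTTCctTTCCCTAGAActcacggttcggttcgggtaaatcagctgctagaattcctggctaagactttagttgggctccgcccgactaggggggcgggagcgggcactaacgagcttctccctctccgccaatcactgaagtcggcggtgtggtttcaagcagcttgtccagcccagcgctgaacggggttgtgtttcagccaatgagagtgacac
A match is a description of letters and no evidence of binding.

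Levels per transcript length, in TPM summed over each gene, ranked the members. TPM corrects reads for the length of each transcript and for sequencing depth. Stat6 was highest at 79.4 to 103 TPM, followed by Stat3 at 51.2 to 90.7 TPM and Stat2 at 18.6 to 36.2 TPM. The ranges of Stat6 and Stat3 overlapped over libraries, and Stat3 exceeded Stat6 in none of the group means. Stat5a at 10.1 to 20.5 TPM and Stat5b at 11.9 to 20.6 TPM could not be ordered: in the unstretched cultures of experiment 1 they had 13.8 ± 0.315 and 15.2 ± 0.412 TPM, and in those of experiment 2 they had 19.5 ± 0.905 and 17.0 ± 3.13 TPM (SD, n = 3 each). Stat4 was at background in all groups, with 0 to 8 counts per library and at most 0.0417 TPM, so it entered no test and no fold is given.

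Stat5a (ENSMUSG00000004043), the member with the transcript that led to the choice, was also lower as a gene. Under low stretch the 6 libraries had 16.8, 17.8, 20.1, 19.5, 17.9 and 18.0 CPM, and the unstretched libraries had 22.7, 21.8 and 22.1 CPM. All 6 stretched libraries lay below all 3 unstretched ones, and the log2 fold change was -0.30 (SE 0.07), given as a description. Under high stretch the libraries had 25.5, 37.7 and 34.9 CPM against 46.1, 50.3 and 38.6 CPM. The groups again did not overlap, but the highest stretched and the lowest unstretched library lay within 1 CPM of each other. The log2 fold change was -0.47 (SE 0.21), with an unadjusted p of 0.0573 and an adjusted p of 0.368 in edgeR's quasi-likelihood test, so the gene did not pass. Without unstretched replicate 3 of experiment 2 it was -0.55 with an adjusted p of 0.131. On the TPM scale the same contrast was wider, 13.4 ± 1.52 against 19.5 ± 0.905 TPM (SD, n = 3 each), and unstretched replicate 3 had the highest value, 20.5 TPM, where it had the lowest CPM of its group.

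Stat5b (ENSMUSG00000020919), the neighbouring paralogue, had 35.6 ± 3.68 CPM under low stretch (SD, n = 6) and 38.7 ± 1.32 CPM without (SD, n = 3), and the groups overlapped. In TPM its low-stretch libraries, at 11.9 to 13.8, lay below the unstretched ones, at 14.9 to 15.7, without overlap. Under high stretch its libraries had 47.4, 55.6 and 61.7 CPM against 62.2, 70.3 and 63.1 CPM, a log2 fold change of -0.25 (SE 0.17) with an edgeR adjusted p of 0.615. The groups did not overlap, by less than 1 CPM. The genes lie on opposite strands and their transcripts are alike in part: 265 of the 3789 windows of 100 bases in Stat5a-201 also occur in a Stat5b transcript, so some reads could be assigned to either. The ends of Stat5a and Stat3 also overlap on opposite strands, by 72 bases, and whether counting used strand is not given in the sources used here.

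Stat3 (ENSMUSG00000004040), the factor behind gp130, had 150 ± 17.6 CPM under low stretch (SD, n = 6) and 160 ± 7.42 CPM without (SD, n = 3), with overlapping groups. In experiment 2 it had 173, 191 and 187 CPM against 229, 216 and 224 CPM. Every stretched library lay below every unstretched one, and the log2 fold change of -0.28 (SE 0.15) had an edgeR adjusted p of 0.480. Stat2 (ENSMUSG00000040033), the ISGF3 subunit, had 47.3 ± 3.33 CPM (SD, n = 6) against 52.7 ± 2.26 CPM (SD, n = 3) under low stretch, a log2 fold change of -0.18 (SE 0.07), with overlap. In experiment 2 it had 47.9, 55.0 and 59.6 CPM against 64.3, 68.0 and 73.1 CPM. The groups were apart and the log2 fold change was -0.34 (SE 0.16), with an edgeR adjusted p of 0.393.

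Stat6 (ENSMUSG00000002147), the interleukin-4 factor, was the member without a lower CPM in stretched cells. It had 168 ± 18.3 CPM (SD, n = 6) against 153 ± 4.21 CPM (SD, n = 3) under low stretch, a log2 fold change of 0.10 (SE 0.09), while in TPM it had 83.9 ± 4.09 against 86.5 ± 0.718. In experiment 2 Stat6 had 275, 341 and 320 CPM against 275, 325 and 224 CPM, and the groups overlapped. The log2 fold change was 0.18 (SE 0.20) with an edgeR adjusted p of 0.829. In TPM the same libraries lay higher with stretch without overlap, at 101.3 to 103.0 against 91.4 to 100.6, so the separation depended on the scale. In experiment 1 a pair of low-stretch libraries, replicates 3 and 4, whose sample codes are neighbours, stood off from the other 4: they had the lowest Stat3 (127.6 and 133.3 CPM) and the highest Stat6 (193 and 188 CPM) and Stat5b (40.1 and 39.6 CPM). Runs of neighbouring codes, each with 1 unstretched library, were set here and are not in the labels. Within these runs the Stat6 difference in log2 CPM was 0.27 in the run of those replicates and 0.06 and 0.05 in the others. The Stat3 difference was -0.22 there and -0.04 in each of the others. The Stat5a difference was -0.39, -0.14 and -0.30 in the 3 runs, the smallest in the run of replicates 3 and 4.

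**Figure D2:**
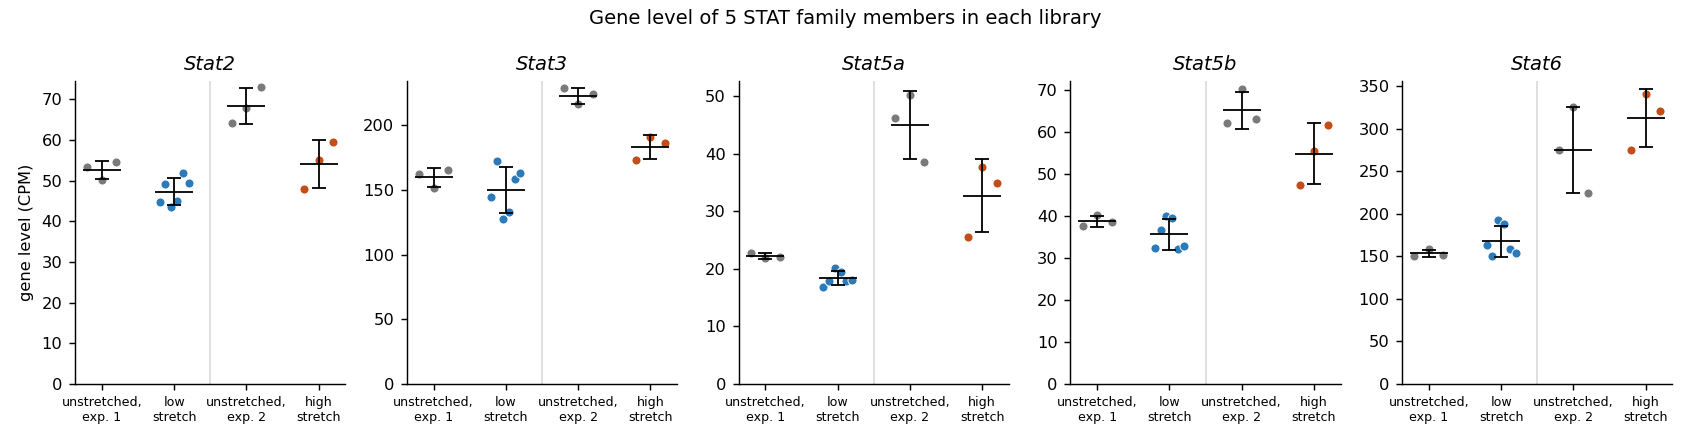
Gene level in CPM of 5 STAT family members, 1 panel per gene and 1 point per library, in the unstretched and low-stretch cultures of experiment 1 and the unstretched and high-stretch cultures of experiment 2; bars give the mean and SD. Stat2, Stat3, Stat5a and Stat5b under high stretch lie below the unstretched libraries of that experiment without overlap, whereas Stat6 overlaps.

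Of the 5 members that could be tested, 4 had a negative log2 fold change in each comparison, with a median of -0.15 under low and -0.28 under high stretch, beside medians of 0.01 and -0.02 over all genes. Under low stretch 1 of the 5, Stat5a, was lower in CPM without overlap between groups, where 6.84% of all genes were. Stat5b was lower without overlap in TPM but not in CPM. Since the family was chosen on these samples, nothing is read from either. Under high stretch 4 of the 5 were lower in CPM without overlap, where 10.3% of all genes were. None of the 5 passed edgeR's test under high stretch, none had an unadjusted p under 0.05, and DESeq2 called none. The experiments also differed in CPM without stretch: mean Stat5a was 22.2 CPM in experiment 1 and 45.0 CPM in experiment 2, and Stat6 was 153 and 275 CPM. These gaps depended on the scale. In TPM the same means were closer, 13.8 and 19.5 for Stat5a and 86.5 and 96.8 for Stat6. Stat3 had 160 and 223 CPM but 81.9 and 72.2 TPM, and Stat2 had 52.7 and 68.4 CPM but 33.6 and 27.7 TPM.

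Most of the lower Stat5a level lay in 1 transcript. Stat5a-201 had 0.779, 0.843, 0.899, 0.865, 1.21 and 1.15 TPM under low stretch and 2.95, 3.22 and 3.38 TPM in the unstretched libraries, a mean 3.33-fold higher without stretch. Every stretched library was below every unstretched one. Under high stretch it had 0.854, 1.97 and 1.44 TPM against 7.10, 5.32 and 5.55 TPM, 4.21-fold higher without stretch, and the highest stretched library stood well below the lowest unstretched one. The transcript with the same coding exons, Stat5a-202, had 6.12 ± 0.327 TPM (SD, n = 6) against 6.72 ± 0.449 TPM (SD, n = 3) under low stretch and 7.26 ± 0.250 against 6.87 ± 1.27 TPM (SD, n = 3 each) under high stretch, with overlapping groups in both. Of the difference in summed Stat5a TPM, -3.26 under low and -6.09 under high stretch, Stat5a-201 made up 68.2% and 75.0%. All other Stat5a transcripts together had 9.57 ± 0.446 against 10.6 ± 0.512 TPM in experiment 1, also lower without overlap. In experiment 2 they had 12.0 ± 1.08 against 13.5 ± 1.43 TPM, with overlap.

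**Figure D3:**
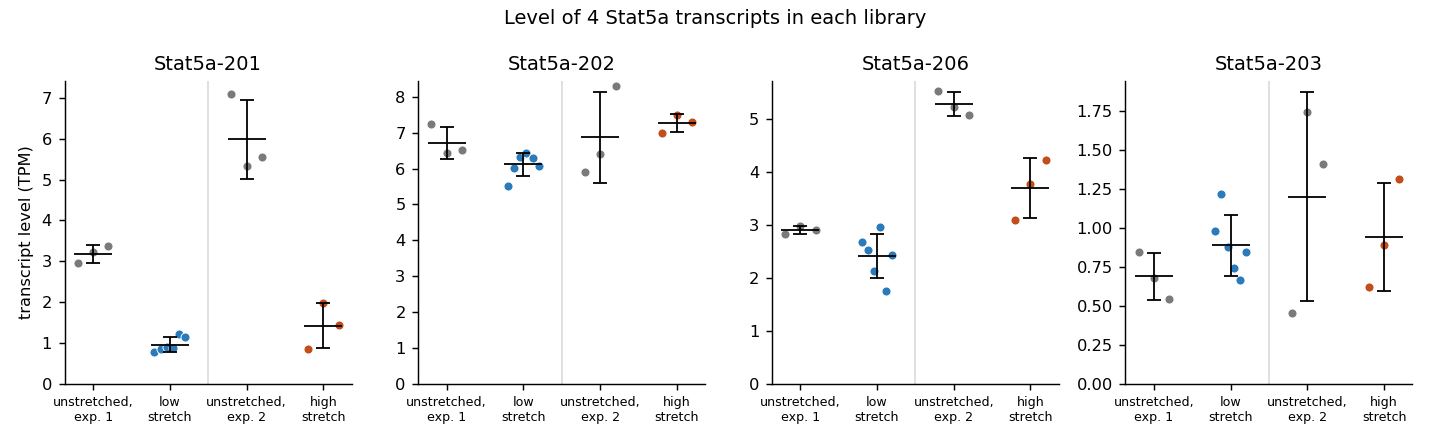
Level in TPM of 4 Stat5a transcripts, 1 panel per transcript and 1 point per library, by group, with bars for the mean and SD. In experiment 1, on which the transcript was chosen, Stat5a-201 is at 0.779 to 1.21 TPM with and 2.95 to 3.38 TPM without stretch. In experiment 2, which did not supply the value used for the choice, it is at 0.854 to 1.97 TPM with and 5.32 to 7.10 TPM without stretch. Stat5a-202 overlaps between stretched and unstretched libraries in both experiments.

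As a share of Stat5a TPM, Stat5a-201 stood at 9.11% ± 1.80 in the 6 low-stretch libraries and at 23.1% ± 2.01 in the 3 unstretched ones (mean ± SD). This value chose the family, with a limma adjusted p of 0.0403, and it is one of 4 transcripts called among 27672, or 0.0145%. At the threshold, transcripts of Arhgap22 and C230072F16Rik had the same 0.0403, and just outside it lay transcripts of Postn at 0.0675 and Trpm4 at 0.0759. The high-stretch experiment did not supply the value used for the choice. There the share of Stat5a-201 was 7.33%, 13.9% and 10.1% in the stretched libraries and 37.0%, 28.4% and 27.1% in the unstretched ones. No stretched library reached the level of an unstretched one, and the difference was -20.4 percentage points. The log2 ratio of Stat5a-201 to the gene's other transcripts (0.1 TPM added to each) differed by -1.89 (SE 0.30), with an unadjusted limma p of 0.000654, place 69 among 23374 transcripts, and an adjusted p of 0.218. The two-sided exact permutation test over the 6 libraries gave p = 0.1 for the share, the smallest it can give with 3 against 3. The transcript thus did not pass in this experiment, in which limma called 0 of 23374 transcripts, or 0%. The lowest adjusted p there was 0.0933, and 1906 transcripts were under 0.05 before adjustment. Without unstretched replicate 3 the difference was -2.01 with an adjusted p of 0.198. In a fit that took its spread from all 15 libraries the same difference had an adjusted p of 0.00611, a fit that includes the samples on which the transcript was chosen.

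The other Stat5a shares moved around this one, as shares of a whole must. Stat5a-202 took 58.1% ± 3.12 (SD, n = 6) against 48.7% ± 2.12 (SD, n = 3) under low stretch and 54.6% ± 4.88 against 35.1% ± 4.94 (SD, n = 3 each) under high stretch. The groups were apart in both experiments, and under high stretch the log2 ratio differed by 1.14 (SE 0.22), with a limma adjusted p of 0.295. Stat5a-206, the short model, took 22.8% against 21.1% and 27.6% against 27.2%, with overlap in both and a limma adjusted p of 0.969 under high stretch. Its level under high stretch, 3.70 ± 0.566 TPM, lay below the 5.29 ± 0.226 TPM without stretch (SD, n = 3 each), without overlap. Stat5a-203 was a minor transcript with 8.42% against 4.99%, without overlap, in experiment 1 and 6.90% against 6.16%, with overlap, in experiment 2. The remaining 3 Stat5a transcripts were below 5% of the gene in every group. Only a small part of the sequence tells these transcripts apart: 155 of the 3789 windows of 100 bases in Stat5a-201, and 77 of 3639 in Stat5a-202, occur in no other Stat5a or Stat5b transcript, so few reads distinguish these transcripts.

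**Figure D4:**
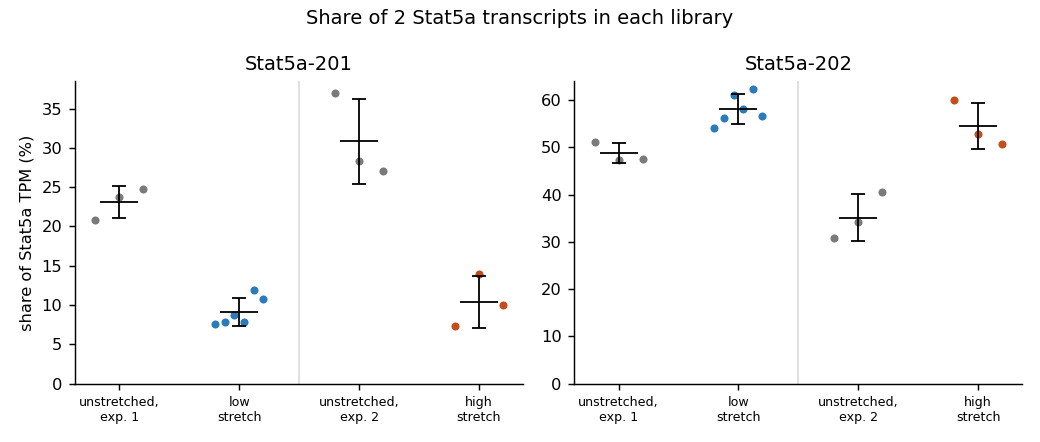
Share of Stat5a TPM in percent taken by Stat5a-201 and by Stat5a-202, 1 point per library by group, with bars for the mean and SD. For Stat5a-201, stretched libraries lie at 7.64% to 11.9% and unstretched ones at 20.9% to 24.7% in experiment 1, on which the transcript was chosen. In experiment 2, which did not supply the value used for the choice, they lie at 7.33% to 13.9% and 27.1% to 37.0%. Within each experiment Stat5a-202 shows the opposite order.

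Transcript shares of the other members moved little. Over the family, 11 transcripts could be tested under low and 9 under high stretch. In each comparison 3 of them had shares that did not overlap between groups, where 5.43% of all transcripts tested did under low and 14.6% under high stretch, and since Stat5a was chosen on the former nothing is read from that count. The 3 under low stretch were Stat5a-201, Stat5a-202 and Stat5a-203, and under high stretch they were Stat5a-201, Stat5a-202 and Stat3-201. None of the 9 passed limma's test under high stretch, and 2 of them, Stat5a-201 and Stat5a-202, had an unadjusted p under 0.05. Stat3-203, with 770 codons, carried 79.7% ± 3.11 (SD, n = 6) of Stat3 TPM against 78.0% ± 0.792 (SD, n = 3) in experiment 1 and 84.6% ± 1.48 against 83.4% ± 1.30 (SD, n = 3 each) in experiment 2. Stat3-201, with 769 codons, took 7.25% ± 0.251 under high stretch against 8.85% ± 1.27 (SD, n = 3 each), with a limma adjusted p of 0.759. Stat5b-201 made up 94.3% to 96.5% and Stat6-201 90.3% to 98.2% of their genes in the group means, which left little for a shift.

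Stat2 was divided among 3 models. The coding transcripts Stat2-201 (922 codons) and Stat2-202 (923 codons) took 29.6% and 37.8% under high stretch against 32.9% and 35.4% without, with limma adjusted p-values of 0.730 and 0.845. The third, Stat2-206, is annotated as a retained intron and took 28.3% against 28.2%, with a limma adjusted p of 0.988. Summed over its retained-intron models, 38.2% ± 2.52 (SD, n = 6) of Stat2 TPM stood in such transcripts against 38.0% ± 1.23 (SD, n = 3) in experiment 1, and 32.6% against 31.8% in experiment 2. Over all transcripts that share was 2.97% to 4.75% in the group means. For Stat3 it was 7.92% against 9.61% and 2.04% against 2.36%, and for Stat6 it was 6.73% against 9.45% and 1.63% against 2.15%. Under high stretch the two-sided exact permutation p-values were 0.6, 0.7 and 0.6 for Stat2, Stat3 and Stat6, where 0.1 is the smallest possible.

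The pathway around the family was read from lists of ligands, receptors, kinases, inhibitors and target genes, none of them members. Under low stretch 1.85% of all 21672 genes tested were called higher and 3.60% lower by edgeR at an adjusted p under 0.05, and under high stretch 1.31% and 2.16% of 18524. Genes marked as low-level below averaged under 1 CPM and, like Ddx58, are named because their list's count is small, after their values were seen. Among ligands, 1 of 15 rose and 1 fell under low stretch, and 1 of 13 rose and 1 fell under high stretch, with median log2 fold changes of -0.16 and 0.03. Il11, a cytokine of the gp130 family, was the ligand that rose in both, at 9.60 ± 6.09 CPM (SD, n = 6) against 1.23 ± 0.860 CPM (SD, n = 3) in experiment 1 and at 17.0 ± 4.29 against 1.59 ± 0.875 CPM (SD, n = 3 each) in experiment 2. The edgeR adjusted p-values were 0.0419 and 0.0105. Csf1, the macrophage growth factor, fell under low stretch by 0.59 on the log2 scale (SE 0.10, edgeR adjusted p 0.00957), from 1035 ± 113 CPM (SD, n = 3) to 700 ± 65.7 CPM (SD, n = 6). The ligand that fell under high stretch was the low-level Cntf, at 0.174 against 0.597 CPM. Without unstretched replicate 3 of experiment 2, 2 ligands rose and 1 fell under high stretch, beside a background of 625 genes higher and 796 lower of 18297.

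Of the STAT-coupled receptors, 1 of 23 rose and none fell under low stretch, and none of 21 rose and 1 fell under high stretch, with medians of 0.00 and -0.08. Under high stretch 2 rose and 3 fell without unstretched replicate 3 of experiment 2. The riser was Cntfr, the receptor chain for ciliary neurotrophic factor, at a low level of 0.887 against 0.378 CPM and with an edgeR adjusted p of 0.0194. The receptor that fell was the low-level Il2rb, an interleukin-2 receptor chain, at 0.128 against 0.560 CPM. Il6st, the gp130 chain itself, had 302 to 526 CPM under low stretch against 521 to 851 CPM, with slight overlap, and 233 to 319 CPM under high stretch against 435 to 714 CPM, without overlap. Its log2 fold changes were -0.75 (SE 0.20) and -0.95 (SE 0.23), and its edgeR adjusted p-values of 0.0514 and 0.0685 missed the threshold. Without unstretched replicate 3 of experiment 2 the latter was -0.71 with an adjusted p of 0.0382, and DESeq2 called Il6st in both comparisons, with adjusted p-values of 0.00893 and 0.00456.

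Of the 4 Janus kinases, none passed edgeR's test as higher, and Jak3 fell under low stretch, from 14.2 ± 1.48 CPM (SD, n = 3) to 8.82 ± 0.863 CPM (SD, n = 6), with a log2 fold change of -0.71 (SE 0.10, edgeR adjusted p 0.00628). Under high stretch Jak3 had 12.4 ± 3.51 against 22.9 ± 4.18 CPM (SD, n = 3 each), with an edgeR adjusted p of 0.144 that became 0.0366 without unstretched replicate 3. Jak1 had log2 fold changes of 0.22 (SE 0.06) and 0.20 (SE 0.19) with edgeR adjusted p-values of 0.0523 and 0.788, and Tyk2 had -0.19 (SE 0.06) and -0.09 (SE 0.22) with 0.0991 and 0.938. Under low stretch DESeq2 called Jak1 higher and Tyk2 lower, with adjusted p-values of 3.35e-05 and 0.0375. Jak2 had 67.4 against 57.8 CPM and 15.3 against 15.7 CPM, with edgeR adjusted p-values of 0.334 and 0.988.

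The inhibitors that the pathway induces moved in opposite directions. Socs3, the feedback inhibitor of gp130 signalling and a STAT3 target, had 36.1, 54.2, 34.7, 31.0, 70.7 and 72.6 CPM under low stretch against 103, 99.6 and 118 CPM. All stretched libraries were lower, and Socs3 fell by 1.12 on the log2 scale (SE 0.26, edgeR adjusted p 0.0352). Under high stretch it had 44.3, 79.5 and 66.1 CPM against 241, 219 and 148 CPM and fell by 1.68 (SE 0.28, adjusted p 0.0210). Socs2, a STAT5 target that restrains growth hormone signalling, rose under high stretch, with 59.4, 37.9 and 43.9 CPM against 13.6, 16.1 and 22.8 CPM, a log2 fold change of 1.42 (SE 0.26, edgeR adjusted p 0.0279). In experiment 1 Socs2 had 44.7 to 117 CPM with stretch against 23.6 to 41.7 CPM, and its log2 fold change of 1.08 (SE 0.30) had an adjusted p of 0.0625. Cish, a further STAT5 target, had 33.5, 59.3 and 52.0 CPM under high stretch against 86.7, 95.7 and 86.1 CPM. The groups were apart in the direction opposite to Socs2, with a log2 fold change of -0.90 (SE 0.23) and an edgeR adjusted p of 0.0844, which was under 0.05 in 6 of 8 alternative fits, of which a pair are the same fit. Under low stretch Cish had 29.7 to 56.5 CPM against 37.8 to 53.4 CPM, with overlap and an adjusted p of 0.491. Over all inhibitors, 1 of 18 fell and none rose under low stretch and 1 of 17 rose and 1 fell under high stretch, with medians of 0.09 and 0.10. Under high stretch 1 rose and 2 fell without unstretched replicate 3 of experiment 2.

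Among 9 tested STAT5-induced genes none passed edgeR's test under low stretch, where DESeq2 called Socs2 and Myc higher (adjusted p 0.00448 and 0.0106), and under high stretch 2 rose, Socs2 and Myc, and none fell, with a median log2 fold change of 0.16 and then 0.45. Myc, the growth regulator, rose to 57.6 ± 4.96 from 18.8 ± 6.51 CPM (SD, n = 3 each, edgeR adjusted p 0.0186). Among STAT3-induced genes, 1 of 16 rose and 3 fell under low stretch and 2 of 15 rose and 3 fell under high stretch, with medians of -0.25 and -0.36. The risers were Timp1, a protease inhibitor, with log2 fold changes of 0.81 and 1.21 (edgeR adjusted p 0.0398 and 0.0441), and Myc under high stretch, which stands in both lists. The falls were Socs3 and the low-level Serpina3n in both comparisons, Fos under low stretch and the low-level Bcl3 under high stretch. Fos fell under low stretch from 21.9 ± 1.58 CPM (SD, n = 3) to 12.0 ± 2.30 CPM (SD, n = 6, edgeR adjusted p 0.00966). Under high stretch its log2 fold change was -2.84 and, without unstretched replicate 3, -0.77, with adjusted p-values of 0.160 and 0.0423. Without that library the STAT3 list held 3 rises and 5 falls and the STAT5 list 2 rises and 1 fall.

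Of the STAT6-induced genes, none rose, and 2 of 8 fell under low and 1 of 6 under high stretch, with medians of -0.39 and -0.92. Without unstretched replicate 3 of experiment 2, 1 rose and 3 fell. Postn, the matrix protein periostin, fell in both, from 43.5 ± 28.9 (SD, n = 3) to 14.5 ± 6.17 CPM (SD, n = 6) and from 13.3 ± 7.35 to 3.14 ± 1.00 CPM (SD, n = 3 each), with edgeR adjusted p-values of 0.0357 and 0.0456. The other fall under low stretch was the low-level Cdh1, at 0.0949 against 0.213 CPM. The low-stretch groups of Postn overlapped, and without unstretched replicate 3 of experiment 1 the log2 fold change went from -1.61 to -0.94 with an adjusted p of 0.237.

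Of the genes driven by ISGF3, none rose, and 2 of 12 fell under low and 2 of 11 under high stretch. The medians were -0.45 and -0.64, beside 0.01 and -0.02 over all genes. Under high stretch 0 of the 11 tested had a positive log2 fold change, and the share of positive signs over all genes is not given here. Without unstretched replicate 3 of experiment 2 none rose and 2 fell under high stretch, with a median of -0.52. Cmpk2, a mitochondrial nucleotide kinase, fell under high stretch from 9.78 ± 2.71 to 1.83 ± 0.107 CPM (SD, n = 3 each, edgeR adjusted p 0.00592), and Ifit3, an antiviral effector, from 14.1 ± 2.19 to 5.16 ± 1.14 CPM (adjusted p 0.0240). Under low stretch their adjusted p-values were 0.177 and 0.281, and the falls there were the low-level Ifit1 and Ddx58, the RNA sensor RIG-I, at 19.4 against 25.0 CPM. Irf9, the DNA-binding partner of STAT2, had log2 fold changes of 0.01 (SE 0.10) and -0.22 (SE 0.20), with edgeR adjusted p-values of 0.964 and 0.762.

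Several of these calls were lost in fits that left out 1 library. Under high stretch Socs2, Socs3 and Myc each missed the threshold without stretched replicate 1, stretched replicate 3 or unstretched replicate 1. Without those libraries the adjusted p was 0.121, 0.123 and 0.139 for Socs2, 0.0930, 0.127 and 0.0948 for Socs3, and 0.0909, 0.107 and 0.0791 for Myc. Over all genes the same fits called 90, 14 and 122, against 643 in the main fit, so calls were lost widely. With any 1 library left out the log2 fold changes were 1.21 to 1.67 for Socs2, -1.87 to -1.48 for Socs3 and 1.41 to 1.92 for Myc. Under low stretch Socs3 stayed under 0.05 in 2 of 9 fits that left out 1 library, with log2 fold changes of -1.26 to -1.01, and Jak3 and Csf1 did so in all 9 of those fits. Il11 stayed under 0.05 in 2 of 9 fits under low and 4 of 6 under high stretch, with log2 fold changes of 2.49 to 3.50 and 3.07 to 3.92. Timp1 stayed under 0.05 in 2 of 9 fits under low and 2 of 6 under high stretch, Postn likewise in 2 of 9 and 2 of 6, and Ifit3 in 2 of 6. Among the fits that left out 1 library, Cmpk2 missed it only without stretched replicate 3 (adjusted p 0.0622), and under low stretch Fos only without unstretched replicate 3 (0.0513) and Cntfr only without unstretched replicates 2 or 3 (0.0583 and 0.0792). With library totals in place of TMM scaling the high-stretch calls of Socs2 (0.0955), Myc (0.0627) and Postn (0.0758) were also lost, and that of Postn at a mean count of at least 100 (0.0637).

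The low-stretch results also turned on the fit. In experiment 1, libraries from the same run of neighbouring sample codes deviated together from their group means. The r was 0.327 to 0.570 in the 6 pairs of a stretched and an unstretched library. The 12 pairs from different runs had a mean r of -0.218. Deviations from a group mean cancel within the group, so that negative value largely follows from the positive ones and is no separate contrast. The sample codes form 1 unbroken series, and the bounds of the runs were set here so that each run holds 1 unstretched library. The labels give no such runs and do not say what one would stand for. With the run as a block, edgeR also called Il6st (adjusted p 9.09e-05), Tyk2 (0.0110), Cish (0.0391), Cmpk2 (0.000117) and Ifit3 (0.00747) lower under low stretch. In the same fit Jak1 (0.00649), Socs2 (0.000148) and Myc (6.76e-05) were called higher. The low-stretch Socs2 difference was also under 0.05 without a filter (0.0364), with all 15 libraries in 1 fit (0.0495) and with replicate number as a block (0.0199). Other fits lost low-stretch calls. Fos missed the threshold with all 15 libraries (0.443) and Timp1 likewise (0.0573). With replicate number as a block, Jak3 (0.0558), Csf1 (0.0740), Cntfr (0.102), Timp1 (0.0877) and Fos (0.0644) missed it. Under high stretch, where each run holds the libraries of 1 replicate number, the edgeR block fit also called genes that the main fit did not. Il6st (0.00730), Jak3 (0.0116), Cish (0.00419) and Fos (0.000459) were called lower and Cntfr (0.00141) higher.

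**Figure D5:**
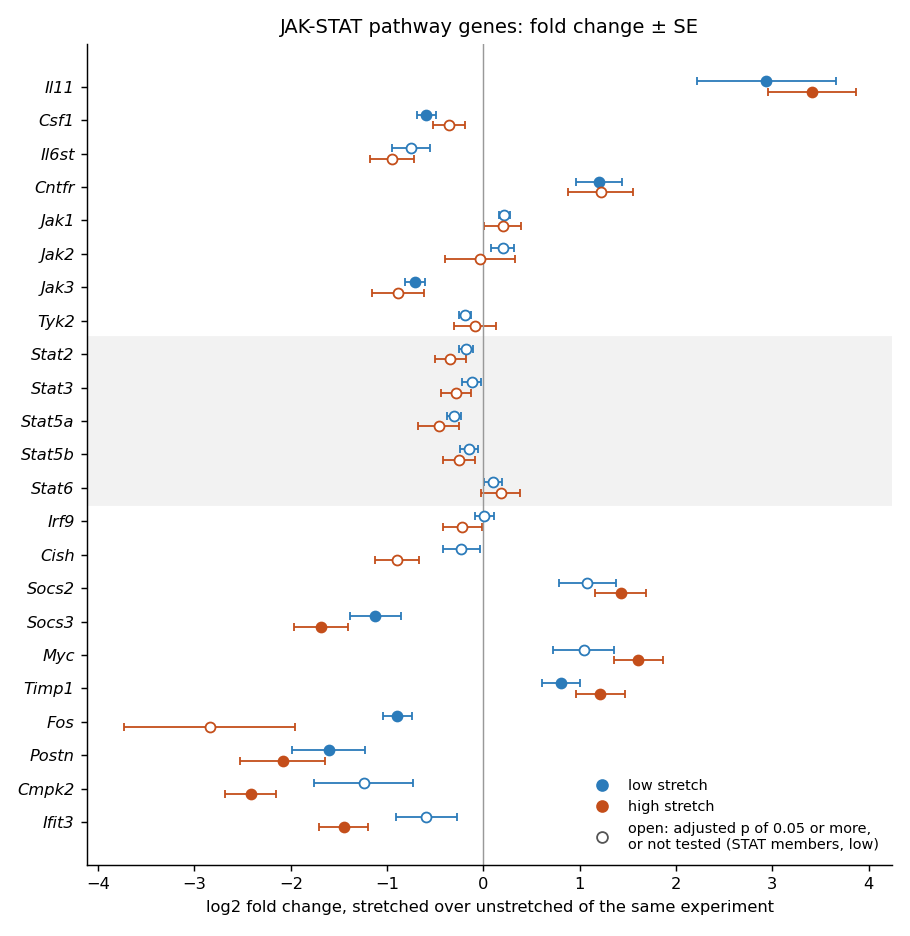
Log2 fold change with its standard error, stretched over unstretched cultures of the same experiment, for the named JAK-STAT pathway genes and 5 family members (shaded); filled points had an edgeR adjusted p under 0.05, and members carry no test under low stretch. The family members lie between -0.47 and 0.18, while Il11, Socs2 and Myc lie to the right and Socs3, Postn and Cmpk2 to the left of 0.

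The genes most like Stat5a across the study were found by Pearson's r of log2 CPM after centring on each experiment, over 15 libraries and 12361 genes outside the family with at least 1 CPM. Among the 5 highest were Hoxb13 (r = 0.98), Samd14 (0.97), D10Jhu81e (0.96) and Reep6 (0.96), given as a description. These 4 share the libraries and their scaling with Stat5a, and their own log2 fold changes were -0.30 to -0.58 under low and -0.54 to -0.91 under high stretch. Among the members, the same measure was 0.83 for Stat5a with Stat5b and for Stat2 with Stat3, and 0.09 for Stat5a with Stat6.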

How the data were processed

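The authors deposited raw gene counts and transcript TPM, and the submitters' processing notes name STAR 2.7.5c, featureCounts from Subread 2.0.0, Salmon 1.9.0, DESeq2 1.38.3 and the build mm39. Their settings, the annotation, the strand mode and whether a read pair was counted once are not given in the sources used here. TPM carries no depth, so the precision of a transcript share is unknown beyond the spread between libraries. GENCODE M21 gave symbols for 52083 genes and linked 137189 transcripts to genes.

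The quasi-likelihood F test of edgeR 4.0.16 (R 4.3.3; TMM, filterByExpr) was run on the counts, separately in each experiment. Transcript usage was tested with limma 3.58.1 (trend) on log2 of transcript TPM over the TPM of the gene's other transcripts, each plus 0.1, for genes with a mean of at least 1 TPM and mean shares of 0.05 to 0.95. P-values were adjusted by Benjamini-Hochberg over all features, with a threshold of 0.05. SE is that of the log2 change. For edgeR it was derived as the absolute log2 fold change over the square root of the F statistic. CPM used TMM-scaled totals of all 15 libraries. Both tests were tested on simulated data.

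Named were the members, their transcripts with at least 5% of the gene in a group, 8 fixed pathway genes (Il6st, Jak1, Jak2, Tyk2, Cish, Socs2, Socs3, Irf9), up to 5 called list genes per direction and comparison with a mean of at least 1 CPM, and the 5 genes most like Stat5a. Some named genes are not reported here. Members and lists were chosen with earlier results of these data known. Alternatives were DESeq2 1.42.0, RLE factors, other filters and pseudocounts, a linear scale, 1 fit of all 15 libraries, blocks on replicate number or code run, and each library left out. Totals without TMM, and list counts without unstretched replicate 3 of experiment 2, were added after seeing the data.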

Additional observations from a re-analysis of the deposited data

Results flagged for a closer look

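Of 37 series of low-stretch values checked (n = 6 each), 1 held a sample far from the others: Postn was at 26.6 CPM in low-stretch replicate 5 and at 8.90 to 14.0 CPM in the other 5 libraries, a gap of 0.710 of the whole range, above the critical value of Dixon's test. Chance marks about 1 in 20 such series.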

How the results depend on the processing

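All alternatives kept the sign of the Stat5a gene and Stat5a-201 share differences under high stretch. The gene stayed short of the threshold in all (log2 -0.55 to -0.44, adjusted p 0.0744 to 0.558; -0.57 to -0.32 with 1 library left out). The share stayed short of it (adjusted p up to 0.599; log2 ratio -2.13 to -1.66 with 1 library left out) except with all 15 libraries in 1 fit (-1.89, adjusted p 0.00611). No named gene with a call changed sign. Of values short of the threshold or not tested, those of Jak2, Tyk2, Irf9, Stat5a-203, Stat5a-206 and the Stat2 transcripts did in at least 1 alternative. The number of genes called was less stable. Under low stretch it was 1181, against 2837 with DESeq2, 640 with all 15 libraries, 490 with the replicate block, 6106 with the code run block and 220 to 1630 with 1 library left out. Under high stretch it was 643, against 1403 with DESeq2, 1050 without a filter, 414 at a mean count of at least 100, 1488 with all 15 libraries, 1546 with the replicate block, which is also the code run block there, and 14 to 1421 with 1 library left out. The number of transcripts called under low stretch was 4, against 1 and 79 with pseudocounts of 0.01 and 1 TPM, 91 without a filter, 0 with the replicate block, 54 with the code run block and 1 to 8 with 1 library left out. Under high stretch it was 0, against 44 with a pseudocount of 1 TPM, 7 without a filter, 2 on the linear scale, 254 with all 15 libraries and 0 to 10 with 1 library left out. The low-stretch Stat5a-201 log2 ratio, -1.50, was -0.96 with a pseudocount of 1 TPM. The cause of these differences was not tested. Samples sharing a replicate number deviated together by a mean r of -0.0713 in experiment 1 and 0.175 in experiment 2, so the pairing by number is not established. Libraries of the same code run did so in experiment 1 with a mean r of 0.438 (6 pairs, 0.327 to 0.570). The mean of -0.218 for other runs largely follows from that value, since deviations from a group mean cancel within the group. In experiment 2 the runs are the replicate numbers. The Stat5a-201 share under high stretch had an adjusted p of 0.599 with the replicate block and the Stat5a gene 0.287. Whole-pair counting and depth of transcript estimates are unknown, and at 0 to 8 counts Stat4 could not be compared.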
